A study of Mus musculus with 16 samples.

Results

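Proliferating cells are recognised in tissue RNA by a small set of transcripts that copy the genome and then divide it. The levels of 35 such genes were followed in oligodendrocytes, glial cells that wrap axons in myelin, from wild-type mice and mice that develop amyloid plaques. The genes were chosen by name, with earlier results of these data known, and each is 1 row of the deposited table of 53801 genes. All 35 were present and all 35 passed the filter on low counts, which kept 21768 genes. They fall into 8 roles. The 11 replication genes comprise the MCM helicase (Mcm2, Mcm3, Mcm4, Mcm5, Mcm6, Mcm7) and the enzymes and clamp that feed the fork (Tyms, Rrm1, Rrm2, Tk1, Pcna). The other 24 are chromatin and chromosome genes (Mki67, Top2a, Uhrf1), CDK1 with its cyclins, mitotic kinases, centromere proteins, spindle and cytokinesis proteins and partners of the anaphase-promoting complex. They are called the mitotic and chromatin genes below.

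The 16 libraries came from male mice in 4 groups of 4. WT_NCD and WT_HFD were purchased C57BL/6J Jcl wild-type mice on a control diet, with 12.5% of its energy from fat and 345.0 kcal per 100 g, or on a high-fat diet, with 60.0% of its energy from fat and 524 kcal per 100 g. App_NCD and App_HFD were homozygous for the App NL-G-F knock-in allele and were fed the same diets. In these animals the endogenous App gene, under its own promoter, carries a humanised amyloid-β sequence with the Swedish, Beyreuther/Iberian and Arctic mutations. Every mouse received its diet for 6 months from 2 months of age, was perfused with saline at 8 months, and gave oligodendrocytes by magnetic sorting, from which total RNA and directional poly(A) libraries were made. Numbers after a group name are the replicate numbers of the labels, which are 4, 5, 11 and 12 in WT_NCD, 2, 3, 15 and 16 in WT_HFD, 537, 538, 545 and 553 in App_NCD, and 547, 559, 560 and 561 in App_HFD. Values of 1 group are always listed in that order. No batch was recorded, and the p-values measure the spread between these samples only. Only the wild-type mice are described as purchased, and any difference of animal source could not be told apart from genotype.

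The cell cycle runs on waves of transcription. In G1 and S phase, E2F factors switch on the MCM helicase, nucleotide synthesis and the replication clamp, and in G2 and mitosis a MuvB complex with B-Myb and FOXM1 switches on cyclin B, the mitotic kinases and the spindle genes through promoter elements called cell cycle homology regions, often beside CCAAT boxes bound by NF-Y. Mature oligodendrocytes have left the cycle, whereas oligodendrocyte precursors and microglia, the brain's resident macrophages, can divide in the adult, and microglia are known to multiply around amyloid plaques. Replication proteins also serve DNA repair, so cells outside the cycle can hold their transcripts, while mitotic transcripts are largely restricted to dividing cells.

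Levels are given as CPM, the count of a gene scaled to its library total after TMM adjustment, and differences as log2 ratios, App minus wild type, from edgeR's quasi-likelihood test with Benjamini-Hochberg adjustment over all genes tested. A gene is called higher or lower when its adjusted p is under 0.05. Library totals ran from 90220118 to 217925484 counts in wild type and from 64538297 to 101709022 counts in App. The lowest count of any of the 35 genes outside App_NCD 553 was 22. The sorted cells carried high levels of oligodendrocyte transcripts. The 12 mature oligodendrocyte markers summed to 32316 to 46175 CPM in wild type and 27541 to 50594 CPM in App.

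The preparations also held RNA of other cells, and this touches every value below. The 15 homeostatic microglia markers summed to 3025 to 6685 CPM in wild type and 7441 to 15870 CPM in App, without overlap. Their first member Cx3cr1, the fractalkine receptor of microglia, was at 273 to 628 CPM in wild type and 649.8 to 1015 CPM in App. All 12 markers of disease-associated microglia were called higher in App over both diets, where 10.6% of all genes were called higher and 6.34% lower. The 8 markers of oligodendrocyte precursors summed to 423 to 581 CPM in wild type and 268 to 954 CPM in App, with the defining marker Pdgfra and Cspg5 called lower in App and the proteoglycan gene Cspg4 called higher. Of the 8, 1 was called higher and 2 lower over both diets, where the same 10.6% and 6.34% of all genes were. The 8 neuroblast markers summed to 70.6 to 111 CPM in wild type and 25 to 128 CPM in App, with 0 of the 7 tested called between the genotypes, and their defining marker Dcx did not exceed 1.66 CPM. In sorted bulk samples fewer cells of a type and less RNA per cell cannot be told apart.

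A set of 3 libraries stood apart, and results of the 35 genes are given with and without them where they matter. App_NCD 553 had 39.4% of its counts on mitochondrial genes, against at most 4.62% in the others, and the fewest genes detected, 18928. It held no count of Mcm5 or Cdk1, which allows up to 0.0852 CPM of each from counting error alone, and the highest levels of Mki67 and Mcm4. It lay below the other 7 App libraries in 18 of the 35 genes and above them in 10. The wild-type libraries WT_NCD 4 and WT_HFD 16 carried neutrophil transcripts, with the 8 neutrophil markers summing to 342 and 261 CPM. The other 6 wild-type libraries held 15.5 to 38.7 CPM of them and the App libraries 6.15 to 67.6 CPM. Precursor-stage granule genes were present in them too, Mpo at 1.59 and 5.17 CPM and Elane at 0.675 and 1.88 CPM. WT_HFD 16 held 55.0 CPM of 8 lymphocyte markers, mostly the B cell genes Cd79a and Ms4a1, against 10.6 to 14.3 CPM in the other 6 wild-type libraries. It lay above those 6 in 32 of the 35 cell cycle genes, and WT_NCD 4 did so in 20. The 5 erythroid markers summed to 9049 CPM in WT_HFD 2 and 4719 CPM in WT_HFD 16, against 147 to 1195 CPM in all other libraries. On the high-fat diet all 5 were called lower in App, where 2.05% of all genes were. The part of neutrophil, lymphocyte, erythroid and microglial RNA in the results was not tested.

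App libraries carried more of the mitotic and chromatin transcripts than wild-type libraries on both diets. With all 16 libraries fitted, 7 of the 11 replication transcripts did not pass the test over both diets. On the control diet, where 6.50% of all genes tested were called higher and 1.88% lower, 20 of the 35 genes were called higher in App and 0 lower. Their median log2 difference was 1.39, against a median of -0.02 over all genes. On the high-fat diet, where 5.09% of all genes were called higher and 2.05% lower, 13 of the 35 were called higher and 0 lower, with a median of 0.99 against 0.01. Over both diets together, where 10.6% of all genes were called higher and 6.34% lower, 26 of the 35 were called higher and 0 lower, with a median of 1.07 against -0.01. Of these 26, 12 were called on each diet, 8 on the control diet only, Mcm3 on the high-fat diet only and 5 only with both diets combined. Whether a gene called on 1 diet differs between the diets is a separate test, given below. The division by role was uneven. Over both diets, 22 of the 24 mitotic and chromatin genes were called higher, with a median of 1.50, and the exceptions were Cenpa and Cdc20. Of the 11 replication genes 4 were called higher (Mcm3, Mcm6, Tyms and Tk1), with a median of 0.42. Without App_NCD 553, Mcm2, Mcm5, Rrm2 and Pcna were called higher over both diets as well, where 16.2% of all genes were.

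Every App library lay above every wild-type library of the same diet in 19 of the 35 genes on the control diet and 20 on the high-fat diet, against 7.66% and 15.0% of all genes tested. Across all 16 libraries, 8 of the 35 separated the genotypes without overlap (Tyms, Ccnb1, Plk1, Bub1, Bub1b, Cenpe, Cenpf and Kif23), against 4.44% of all genes. Without App_NCD 553, 28 of the 35 were called higher on the control diet, 24 on the high-fat diet and 31 over both, where 10.2%, 10.8% and 16.2% of all genes were called higher. Without WT_NCD 4 and WT_HFD 16 the counts were 21, 22 and 26, where 6.21%, 5.61% and 10.5% of all genes were called higher. Without all 3 libraries they were 30, 30 and 32, where 12.5%, 12.7% and 18.6% were.

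Counts on a single diet also moved with other libraries. The high-fat count of 13 became 3 without WT_HFD 2, 4 without WT_HFD 15, 5 without WT_HFD 3, 5 without App_HFD 559 and 8 without App_HFD 547, where 3.06%, 3.05%, 3.12%, 3.02% and 3.35% of all genes were called higher. Without WT_HFD 16 alone it was 20, where 5.13% were. The control-diet count of 20 became 13 without WT_NCD 5, WT_NCD 11 or WT_NCD 12, where 3.42%, 3.60% and 3.39% were. Over both diets, leaving out any 1 library gave 23 to 31 of the 35, where 8.11% to 16.2% of all genes were called higher. Of the 26 genes called over both diets, 23 were called in all 16 of these fits, and the exceptions were Mcm6, Nusap1 and Ube2c. Of the 20 called on the control diet 13 were called in all 16, and of the 13 called on the high-fat diet 3 were, Tyms, Ccnb1 and Plk1. On the control diet the Kif20a call was lost in 15 of the 16 fits and that of Birc5 in 12. On the high-fat diet the calls of Prc1, Aurkb and Bub1b were lost in 13, 12 and 11.

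**Figure D1:**
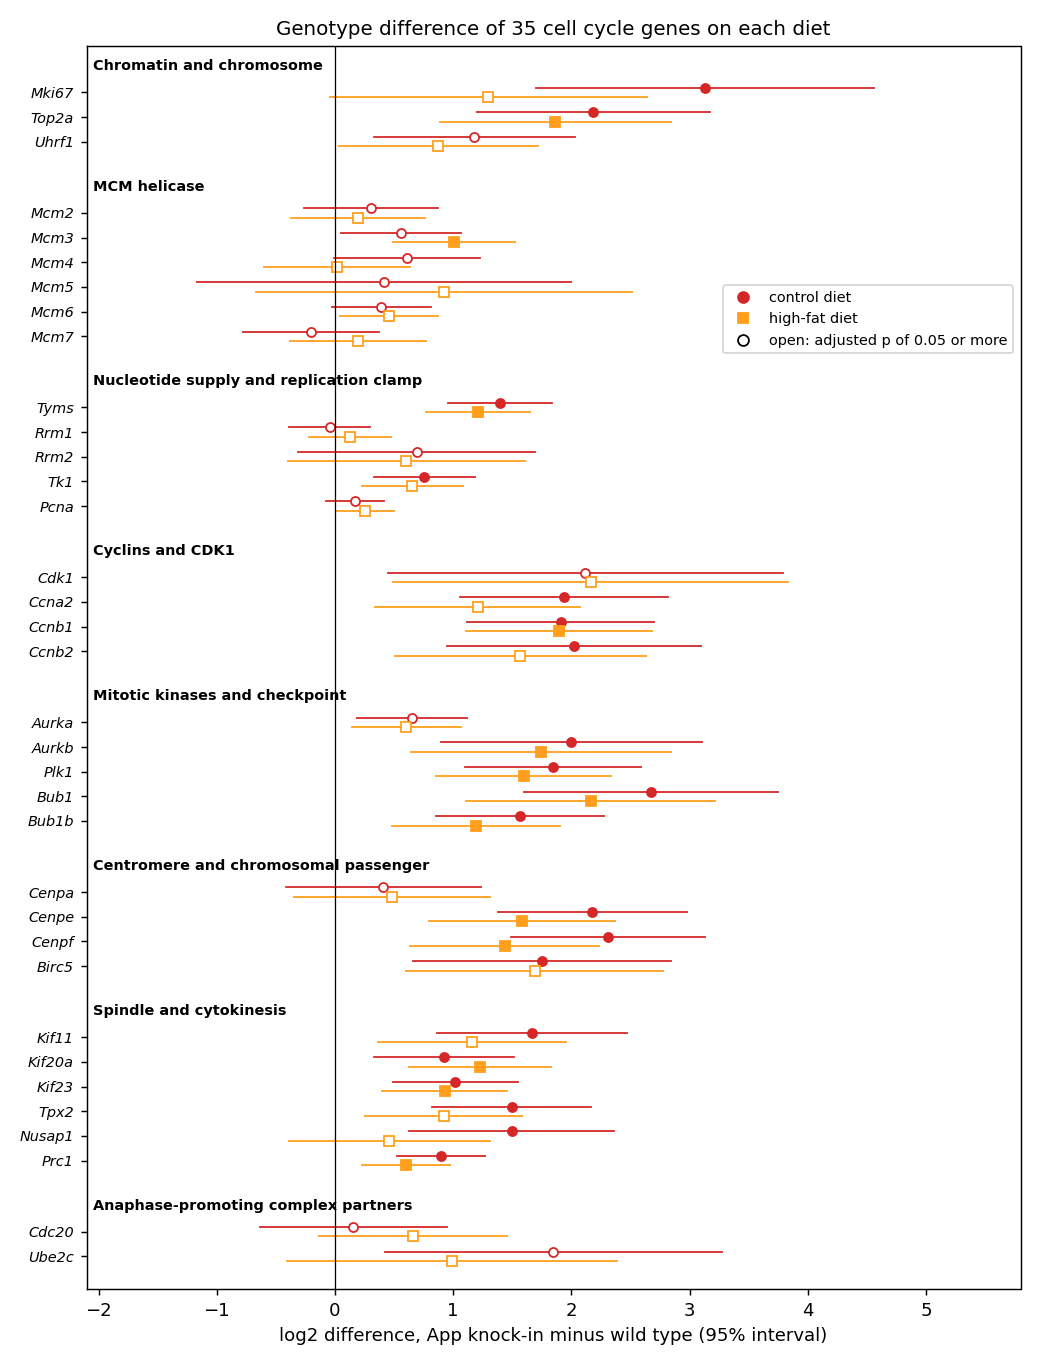
Log2 difference between App and wild type for each of the 35 genes, by role, on the control diet (circles) and the high-fat diet (squares), n = 4 libraries per group. Lines are 95% intervals from the edgeR fit, filled symbols passed an adjusted p of 0.05, and the mitotic and chromatin genes lie farther to the right than most replication genes.

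Promoter sequence was compared between the roles because the waves of S phase and of mitosis are known to use different elements. The sequences below are the 150 bases before the annotated start of transcription of 3 genes from the mitotic and chromatin roles that were called higher (Mki67, Top2a, Kif11) and of 3 replication genes, of which Mcm3 and Mcm6 were called higher over both diets and Rrm1 was not. They are from RefSeq, build GRCm38.p6, written 5′ to 3′ on the strand of the gene, with the motif matches in capitals. The positions are chr7:135716380-135716529 (minus strand) for Mki67, chr11:99024190-99024339 (minus strand) for Top2a, chr19:37376232-37376381 (plus strand) for Kif11, chr1:128359706-128359855 (minus strand) for Mcm6, chr1:20820313-20820462 (minus strand) for Mcm3 and chr7:102441545-102441694 (plus strand) for Rrm1.
Mki67: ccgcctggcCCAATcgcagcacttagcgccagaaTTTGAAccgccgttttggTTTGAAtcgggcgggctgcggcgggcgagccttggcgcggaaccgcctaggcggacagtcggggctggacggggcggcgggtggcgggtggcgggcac
Top2a: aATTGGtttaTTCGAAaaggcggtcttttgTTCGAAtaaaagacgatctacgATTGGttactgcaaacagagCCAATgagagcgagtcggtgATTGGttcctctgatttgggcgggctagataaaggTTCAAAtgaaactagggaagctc
Kif11: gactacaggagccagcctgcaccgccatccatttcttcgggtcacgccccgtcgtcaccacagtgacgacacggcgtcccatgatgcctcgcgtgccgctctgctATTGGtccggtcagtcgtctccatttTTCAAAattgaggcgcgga
Mcm6: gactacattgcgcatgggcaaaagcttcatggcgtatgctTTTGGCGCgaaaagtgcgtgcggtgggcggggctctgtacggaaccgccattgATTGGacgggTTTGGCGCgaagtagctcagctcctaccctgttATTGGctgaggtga
Mcm3: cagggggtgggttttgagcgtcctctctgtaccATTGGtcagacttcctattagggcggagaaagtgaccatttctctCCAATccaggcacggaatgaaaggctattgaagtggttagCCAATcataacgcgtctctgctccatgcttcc
Rrm1: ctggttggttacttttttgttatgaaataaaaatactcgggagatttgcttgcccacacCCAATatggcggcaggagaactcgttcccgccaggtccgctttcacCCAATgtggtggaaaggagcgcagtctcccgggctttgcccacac

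The letters searched, on both strands, were CCAAT (read as ATTGG on the other strand), the homology region as TTTGAA or TTCGAA, and the E2F site as TTTCCCGC or TTTGGCGC. None of these overlapped another in the stretches shown. Mki67, Top2a and Kif11 show a homology region and at least 1 CCAAT box, and Mcm6 shows the E2F form TTTGGCGC on 2 occasions and CCAAT boxes. In Mcm3 the E2F forms lie after the start, outside the stretch shown. Over windows from 250 bases before to 50 after the start, 30 of the 35 genes were matched in the table (Tpx2, Ccna2, Aurkb, Mcm4 and Kif20a were not). A CCAAT box was found in 26 of the 30 (86.7%), against 41.1% of 27025 genes. A homology region was found in 17 of the 30 (56.7%), against 21.7% of all genes, and they comprised 15 of the 20 matched mitotic and chromatin genes and 2 of the 10 matched replication genes, Mcm2 and Mcm7. Either of the 2 E2F forms searched was found in 4 of the 30 (13.3%), against 1.8% of all genes, and all 4 were MCM genes (Mcm3, Mcm5, Mcm6, Mcm7). Letters that differ from these forms by 1 base were not counted, such as gttcccgc in Rrm1 and cttggcgc in Mki67. The count therefore does not show that E2F sites are absent from the other genes. Of the 17 with a homology region, 13 were called higher in App over both diets, with a median log2 difference of 1.415. Of the 13 without it 9 were, with a median of 0.78, where 10.6% of all genes were called higher. The medians do not compare genes of like role, since 15 of the 17 are mitotic and chromatin genes. The matched mitotic and chromatin genes without the region (Uhrf1, Ccnb1, Cenpe, Birc5 and Nusap1) were all called higher too. All motif counts are matches of letters and not sites shown to be bound.

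**Figure D2:**
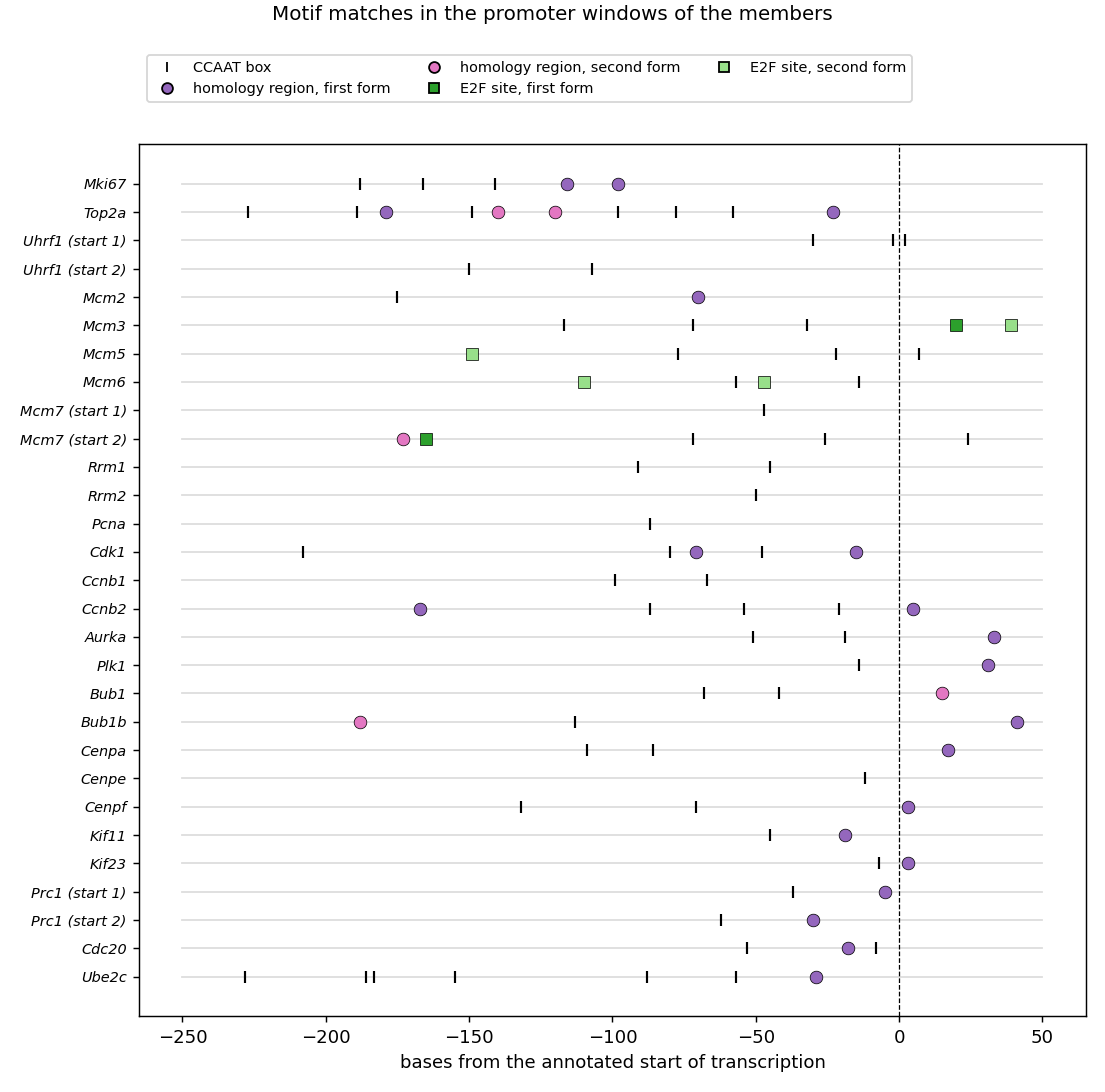
Motif matches in the promoter windows of the members with at least 1 match, by distance in bases from the annotated start (dashed line); genes with several annotated starts have a line for each. Circles (homology region) fall mostly in the mitotic and chromatin genes and squares (exact matches of the E2F forms searched) in 4 MCM genes.

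All 3 chromatin and chromosome genes were called higher over both diets, and Mki67 had the largest difference of the 35 on the control diet. Mki67 (ENSMUSG00000031004, chr7:135689784-135716361, minus strand in GENCODE release M21 of build mm10) encodes the proliferation antigen Ki-67, which coats mitotic chromosomes. Its level was 7.69, 3.93, 4.09 and 3.53 CPM in WT_NCD and 4.11, 4.54, 2.72 and 24.3 CPM in WT_HFD. In the knock-in it was 43.6, 19.7, 21.1 and 84.4 CPM in App_NCD and 18.1, 28.3, 18.3 and 22.9 CPM in App_HFD. On the control diet the groups did not overlap, and on the high-fat diet WT_HFD 16 lay among the App libraries while the other 3 wild-type libraries were at 4.54 CPM or less. The difference was 3.13 (adjusted p = 0.0076, SE 0.66) on the control diet and 1.30 (adjusted p = 0.281, SE 0.61) on the high-fat diet. Without WT_NCD 4 and WT_HFD 16 the high-fat value was 2.53 (adjusted p = 0.00328), and without App_NCD 553 the control-diet value was 2.52 (adjusted p = 0.0165).

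Top2a (ENSMUSG00000020914, chr11:98992943-99024189, minus strand) encodes the topoisomerase that untangles sister chromatids. It was at 5.34, 2.12, 3.65 and 3.17 CPM in WT_NCD and 2.54, 3.59, 2.43 and 11.2 CPM in WT_HFD. App libraries held 20.2, 14.6, 20.0 and 10.3 CPM in App_NCD and 15.6, 24.3, 14.0 and 18.2 CPM in App_HFD. The genotypes did not overlap on either diet, and WT_HFD 16 was above App_NCD 553 but below the rest of the App libraries. The difference was 2.19 (adjusted p = 0.00722, SE 0.45) on the control diet and 1.86 (adjusted p = 0.0186, SE 0.45) on the high-fat diet. Uhrf1 encodes the factor that brings maintenance DNA methylation to the replication fork. It was at 2.49, 1.34, 1.32 and 1.74 CPM in WT_NCD and 1.83, 1.82, 1.69 and 4.03 CPM in WT_HFD, and at 5.13, 4.03, 5.06 and 1.33 CPM in App_NCD and 4.16, 5.53, 3.61 and 3.86 CPM in App_HFD. App_NCD 553 lay among the wild-type libraries, and on the high-fat diet WT_HFD 16 lay among the App libraries. Only with both diets combined was Uhrf1 called, at 1.03 (adjusted p = 0.0166, SE 0.27).

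**Figure D3:**
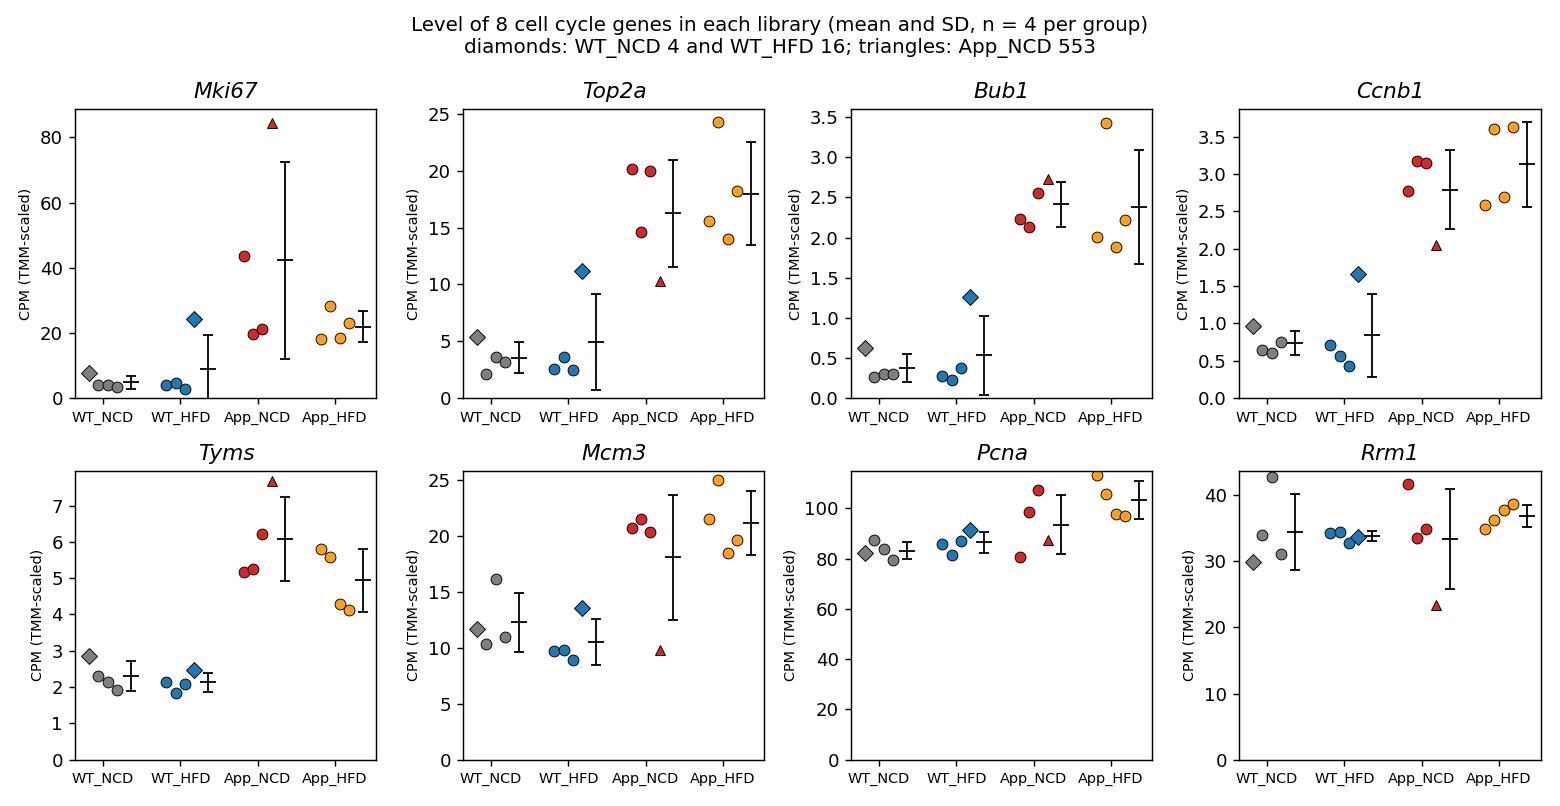
CPM of 8 members in each library, by group, with the group mean and SD (n = 4, error bars drawn down to 0 at most). App libraries lie above nearly all wild-type libraries in Mki67, Top2a, Bub1, Ccnb1 and Tyms, Mcm3 shows a smaller gap, and the groups lie close together in Pcna and Rrm1; WT_HFD 16 is the highest wild-type library in Mki67, Top2a, Bub1 and Ccnb1.

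The MCM genes encode the 6 subunits of the ring that unwinds DNA at the fork, and 2 of the 6 were called over both diets. Mcm3 (ENSMUSG00000041859, chr1:20802968-20820312, minus strand) was at 11.6, 10.3, 16.2 and 11.0 CPM in WT_NCD and 9.75, 9.80, 8.95 and 13.6 CPM in WT_HFD. App libraries held 20.7, 21.6, 20.3 and 9.77 CPM in App_NCD and 21.6, 25.0, 18.5 and 19.6 CPM in App_HFD. All App libraries except App_NCD 553 lay above all wild-type libraries. The difference was 0.56 (adjusted p = 0.145, SE 0.23) on the control diet, 1.01 (adjusted p = 0.0157, SE 0.24) on the high-fat diet and 0.78 (adjusted p = 0.00385, SE 0.17) over both. Mcm6 was at 9.98, 10.8, 13.6 and 12.6 CPM in WT_NCD and 11.3, 11.7, 11.1 and 13.6 CPM in WT_HFD, and at 19.4, 16.2, 16.4 and 9.40 CPM in App_NCD and 14.8, 18.8, 16.3 and 15.5 CPM in App_HFD. Again App_NCD 553 was the only App library within the wild-type range or below it, and the difference over both diets was 0.42 (adjusted p = 0.0418, SE 0.14). The Mcm6 call was lost in each of the 15 fits that left out 1 library other than App_NCD 553 (differences of 0.33 to 0.44), with library totals, RLE factors or no filter on low counts, and without WT_NCD 4 and WT_HFD 16, at 0.42 (adjusted p = 0.0762).

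Mcm4, the MCM gene with the highest mean, did not differ detectably. It was at 21.7, 22.9, 25.1 and 21.8 CPM in WT_NCD and 23.0, 25.8, 24.1 and 26.0 CPM in WT_HFD, and at 27.5, 20.5, 23.4 and 68.5 CPM in App_NCD and 22.9, 23.3, 25.6 and 28.2 CPM in App_HFD. The groups overlapped, and App_NCD 553 lay far above all other libraries, which did not exceed 28.2 CPM. The difference over both diets was 0.31 (adjusted p = 0.316, SE 0.20), with a 95% interval of -0.12 to 0.75. Mcm2 (interval -0.15 to 0.65), Mcm7 (-0.41 to 0.40) and Mcm5 (-0.45 to 1.79) were not called either. The intervals of Mcm2 and Mcm7 end below 1, so a doubling lies outside them, while that of Mcm5 does not. Mcm5 was at 4.78 to 7.69 CPM in wild type and 9.64 to 13.3 CPM in the 7 App libraries other than App_NCD 553, which was at 0. Without that library the differences over both diets were 0.85 (adjusted p = 5.24e-05) for Mcm5 and 0.36 (adjusted p = 0.00278) for Mcm2, and both were called. Mcm4 and Mcm7 were not called without it, at 0.01 (adjusted p = 0.932) and 0.11 (adjusted p = 0.268).

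Among the genes of nucleotide supply, thymidylate synthase separated the genotypes fully. Tyms (ENSMUSG00000025747, chr5:30058202-30073617, minus strand), which makes the thymidine nucleotide from its uridine precursor, was at 2.86, 2.31, 2.15 and 1.91 CPM in WT_NCD and 2.14, 1.84, 2.10 and 2.47 CPM in WT_HFD. App libraries held 5.18, 5.24, 6.22 and 7.67 CPM in App_NCD and 5.81, 5.57, 4.28 and 4.12 CPM in App_HFD. The lowest App library was above the highest wild-type library, with WT_HFD 16 inside the wild-type range. The difference was 1.39 (adjusted p = 0.000424, SE 0.20) on the control diet and 1.21 (adjusted p = 0.00149, SE 0.20) on the high-fat diet. Tk1, the thymidine kinase of the salvage route, was at 4.10, 2.90, 3.03 and 2.96 CPM in WT_NCD and 3.19, 3.89, 3.80 and 4.39 CPM in WT_HFD, and at 5.86, 6.34, 6.09 and 3.63 CPM in App_NCD and 6.22, 6.15, 5.41 and 6.29 CPM in App_HFD. App_NCD 553 again lay within the wild-type range and the 7 others above it. The Tk1 difference was 0.76 (adjusted p = 0.0264, SE 0.20) on the control diet, 0.66 (adjusted p = 0.055, SE 0.20) on the high-fat diet and 0.71 (adjusted p = 0.00212, SE 0.14) over both.

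The 2 subunits of ribonucleotide reductase, which makes deoxynucleotides, and the clamp did not pass the test on all 16 libraries. Rrm2, the regulatory subunit made in S phase, was at 3.05, 1.55, 1.71 and 1.78 CPM in WT_NCD and 1.52, 1.61, 1.77 and 5.63 CPM in WT_HFD, and at 4.33, 3.78, 3.94 and 0.965 CPM in App_NCD and 3.91, 4.82, 3.79 and 3.49 CPM in App_HFD. WT_HFD 16 was the highest of all 16 libraries and App_NCD 553 the lowest. The difference over both diets was 0.65 (adjusted p = 0.196, SE 0.33), and it became 1.13 (adjusted p = 0.0106) without WT_NCD 4 and WT_HFD 16 and 0.77 (adjusted p = 0.0345) without App_NCD 553. Pcna, the sliding clamp that tethers polymerases to DNA, was at 82.2, 87.4, 83.9 and 79.4 CPM in WT_NCD and 85.8, 81.4, 87.2 and 91.5 CPM in WT_HFD. App libraries held 80.6, 98.4, 107 and 87.6 CPM in App_NCD and 113, 106, 97.6 and 96.9 CPM in App_HFD. The groups overlapped on the control diet and not on the high-fat diet, and the difference over both was 0.21 (adjusted p = 0.0808, SE 0.08) with a 95% interval of 0.04 to 0.39. Pcna was called higher over both diets without App_NCD 553, with DESeq2 and with scaling to mature oligodendrocyte markers. It was not called with library totals, RLE factors or no filter on low counts, and was called lower with scaling to homeostatic microglia markers. Rrm1, the catalytic subunit, was at 30.0 to 42.7 CPM in wild type and 23.4 to 41.7 CPM in App. Its difference was 0.04 (adjusted p = 0.846, SE 0.11), with an interval of -0.20 to 0.28.

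CDK1, the kinase that starts mitosis, and its cyclins were called higher in the knock-in over both diets. Cdk1 (ENSMUSG00000019942, chr10:69335146-69352938, minus strand) was at 1.27, 1.20, 0.993 and 0.845 CPM in WT_NCD and 1.54, 0.829, 1.27 and 1.99 CPM in WT_HFD. App libraries held 4.65, 6.73, 7.30 and 0 CPM in App_NCD and 6.57, 8.04, 5.62 and 5.01 CPM in App_HFD. The 7 App libraries with any Cdk1 were at 4.65 CPM or more and all wild-type libraries at 1.99 CPM or less, so only the 0 of App_NCD 553 made the groups overlap. The difference was 2.14 (adjusted p = 0.0119, SE 0.54) over both diets, was not called on either diet alone (adjusted p = 0.0967 and 0.116), and was 2.32 (adjusted p = 2.07e-07) over both without App_NCD 553. Ccnb1 (ENSMUSG00000041431, chr13:100778650-100786570, minus strand), which encodes cyclin B1, was at 0.961, 0.647, 0.606 and 0.753 CPM in WT_NCD and 0.716, 0.565, 0.427 and 1.66 CPM in WT_HFD. App libraries held 2.78, 3.18, 3.15 and 2.04 CPM in App_NCD and 2.58, 3.61, 2.69 and 3.63 CPM in App_HFD. The genotypes did not overlap, although WT_HFD 16 came close to the lowest App library. The difference was 1.91 (adjusted p = 0.00377, SE 0.36) on the control diet and 1.89 (adjusted p = 0.00432, SE 0.36) on the high-fat diet.

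Ccnb2, the second B-type cyclin, was at 1.02, 0.338, 0.380 and 0.579 CPM in WT_NCD and 0.518, 0.556, 0.524 and 2.11 CPM in WT_HFD, and at 3.12, 2.46, 2.67 and 1.19 CPM in App_NCD and 2.58, 3.36, 2.66 and 2.40 CPM in App_HFD. The groups did not overlap on either diet, but WT_HFD 16 exceeded App_NCD 553. The difference was 2.02 (adjusted p = 0.0195, SE 0.49) on the control diet and 1.57 (adjusted p = 0.0668, SE 0.49) on the high-fat diet. Ccna2, cyclin A2, acts from S phase to early mitosis. It was at 2.94, 1.30, 1.77 and 1.96 CPM in WT_NCD and 1.82, 1.73, 1.37 and 5.31 CPM in WT_HFD, and at 7.15, 5.71, 7.39 and 10.4 CPM in App_NCD and 4.18, 8.40, 5.59 and 5.46 CPM in App_HFD. On the high-fat diet WT_HFD 16 lay above the lowest App library. The difference was 1.94 (adjusted p = 0.00746, SE 0.40) on the control diet, 1.21 (adjusted p = 0.0847, SE 0.40) on the high-fat diet and 1.57 (adjusted p = 0.00112, SE 0.28) over both.

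The mitotic kinases and checkpoint genes were all called over both diets. Bub1 (ENSMUSG00000027379, chr2:127801122-127831865, minus strand), a kinase of the spindle checkpoint, was at 0.628, 0.263, 0.303 and 0.303 CPM in WT_NCD and 0.273, 0.226, 0.369 and 1.26 CPM in WT_HFD. App libraries held 2.23, 2.14, 2.56 and 2.73 CPM in App_NCD and 2.00, 3.43, 1.88 and 2.22 CPM in App_HFD. No library of one genotype reached the range of the other. The difference was 2.67 (adjusted p = 0.00315, SE 0.49) on the control diet and 2.16 (adjusted p = 0.0121, SE 0.48) on the high-fat diet, the largest of the 35 over both diets at 2.42. Bub1b encodes BubR1, which holds back anaphase. It was at 2.06, 1.27, 1.15 and 1.23 CPM in WT_NCD and 1.21, 1.18, 1.34 and 3.41 CPM in WT_HFD, and at 4.35, 3.83, 4.35 and 4.43 CPM in App_NCD and 3.58, 5.27, 3.67 and 3.81 CPM in App_HFD. WT_HFD 16 was just below the lowest App library, and the difference was 1.56 (adjusted p = 0.00758, SE 0.33) on the control diet and 1.19 (adjusted p = 0.0365, SE 0.32) on the high-fat diet.

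Plk1, the polo-like kinase of mitotic entry, was at 0.966, 0.629, 0.430 and 0.946 CPM in WT_NCD and 0.697, 0.848, 0.708 and 1.84 CPM in WT_HFD. App libraries held 3.06, 2.22, 2.37 and 3.07 CPM in App_NCD and 2.62, 3.76, 3.01 and 3.01 CPM in App_HFD, above all wild-type libraries. Its difference was 1.85 (adjusted p = 0.00326, SE 0.34) on the control diet and 1.60 (adjusted p = 0.00882, SE 0.34) on the high-fat diet. Aurkb encodes Aurora B, the kinase of the chromosomal passenger complex, and was at 0.752, 0.394, 0.317 and 0.220 CPM in WT_NCD and 0.471, 0.292, 0.243 and 1.17 CPM in WT_HFD. App libraries held 2.26, 1.63, 1.70 and 1.19 CPM in App_NCD and 1.97, 2.59, 1.80 and 0.934 CPM in App_HFD. On the high-fat diet WT_HFD 16 lay above App_HFD 561. The difference was 2.00 (adjusted p = 0.0242, SE 0.51) on the control diet and 1.74 (adjusted p = 0.0492, SE 0.51) on the high-fat diet. Aurka, the spindle-pole kinase Aurora A, was at 1.41 to 2.39 CPM in wild type and 2.17 to 3.42 CPM in App, and was called only over both diets, at 0.63 (adjusted p = 0.00845, SE 0.15).

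Centromere and passenger genes were called higher over both diets except for the centromeric histone. Cenpe (ENSMUSG00000045328, chr3:135212537-135273611, plus strand), a motor that moves chromosomes to the spindle equator, was at 2.29, 1.417, 2.11 and 2.30 CPM in WT_NCD and 1.25, 1.76, 1.45 and 3.58 CPM in WT_HFD. App libraries held 9.59, 5.65, 6.14 and 15.4 CPM in App_NCD and 5.15, 7.48, 5.15 and 6.31 CPM in App_HFD. The genotypes did not overlap, and App_NCD 553 was the highest of all. The difference was 2.18 (adjusted p = 0.00152, SE 0.37) on the control diet and 1.58 (adjusted p = 0.0136, SE 0.36) on the high-fat diet. Cenpf, a large kinetochore protein, was at 2.88, 1.51, 1.35 and 2.00 CPM in WT_NCD and 1.44, 1.91, 3.03 and 4.10 CPM in WT_HFD, and at 11.3, 6.33, 5.86 and 15.0 CPM in App_NCD and 6.52, 8.16, 5.55 and 8.09 CPM in App_HFD, again without overlap. Its difference was 2.31 (adjusted p = 0.0012, SE 0.38) on the control diet and 1.43 (adjusted p = 0.0264, SE 0.37) on the high-fat diet.

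Birc5 encodes survivin, a subunit of the passenger complex. It was at 0.692, 0.366, 0.641 and 0.376 CPM in WT_NCD and 0.320, 0.207, 0.553 and 1.53 CPM in WT_HFD, and at 1.81, 2.19, 1.96 and 1.05 CPM in App_NCD and 2.21, 2.70, 1.96 and 1.56 CPM in App_HFD. The groups of each diet did not overlap, with WT_HFD 16 close to App_HFD 561. The difference was 1.75 (adjusted p = 0.0421, SE 0.50) on the control diet, 1.69 (adjusted p = 0.0536, SE 0.50) on the high-fat diet and 1.72 (adjusted p = 0.00303, SE 0.35) over both. Cenpa, the histone variant that marks centromeres, was at 2.31 to 6.03 CPM in wild type and 1.25 to 5.54 CPM in App, with WT_HFD 16 the highest of all libraries and App_NCD 553 the lowest. Its difference of 0.45 (adjusted p = 0.283, SE 0.27) over both diets was not called, and without App_NCD 553 it was 0.57 (adjusted p = 0.0256).

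All 6 spindle and cytokinesis genes were called higher over both diets. Prc1 (ENSMUSG00000038943, chr7:80294450-80316259, plus strand), which bundles microtubules at the midzone, was at 4.13, 3.76, 3.75 and 3.93 CPM in WT_NCD and 4.89, 4.62, 4.39 and 6.78 CPM in WT_HFD. App libraries held 8.58, 6.24, 7.28 and 6.90 CPM in App_NCD and 6.98, 8.37, 7.09 and 8.98 CPM in App_HFD. WT_HFD 16 exceeded App_NCD 538, and the groups of each diet did not overlap. The difference was 0.90 (adjusted p = 0.00396, SE 0.17) on the control diet and 0.60 (adjusted p = 0.0439, SE 0.17) on the high-fat diet. Kif23, the midzone motor of the centralspindlin complex, was at 2.39, 1.82, 1.63 and 1.88 CPM in WT_NCD and 1.30, 1.60, 1.17 and 2.33 CPM in WT_HFD, and at 4.44, 3.05, 3.33 and 4.86 CPM in App_NCD and 2.84, 3.62, 2.87 and 2.85 CPM in App_HFD, without overlap. Its difference was 1.02 (adjusted p = 0.017, SE 0.24) on the control diet and 0.93 (adjusted p = 0.0304, SE 0.24) on the high-fat diet.

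Kif20a encodes a motor needed for cytokinesis, and was at 1.71, 1.20, 1.40 and 1.52 CPM in WT_NCD and 1.39, 1.59, 1.15 and 1.96 CPM in WT_HFD. App libraries held 3.96, 2.83, 2.88 and 1.36 CPM in App_NCD and 3.25, 3.79, 3.70 and 3.54 CPM in App_HFD. App_NCD 553 lay in the wild-type range and the other App libraries above it. The Kif20a difference was 0.92 (adjusted p = 0.0486, SE 0.27) on the control diet and 1.23 (adjusted p = 0.012, SE 0.27) on the high-fat diet. Tpx2, which activates Aurora A on spindle microtubules, was at 3.11, 2.13, 2.37 and 2.31 CPM in WT_NCD and 1.56, 2.02, 2.81 and 4.77 CPM in WT_HFD, and at 7.02, 5.43, 5.76 and 9.85 CPM in App_NCD and 4.44, 6.55, 4.74 and 5.42 CPM in App_HFD. WT_HFD 16 lay among the App_HFD libraries. The Tpx2 difference was 1.50 (adjusted p = 0.0069, SE 0.31) on the control diet and 0.92 (adjusted p = 0.0868, SE 0.30) on the high-fat diet. Kif11, the motor that pushes spindle poles apart, ran from 1.28 to 4.74 CPM in wild type and from 4.65 to 8.46 CPM in App, with a difference of 1.415 (adjusted p = 0.00129, SE 0.26) over both diets. Nusap1, a spindle-associated microtubule binder, ran from 1.16 to 4.71 CPM and from 2.84 to 8.15 CPM respectively, with a difference of 0.98 (adjusted p = 0.0236, SE 0.28).

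The partners of the anaphase-promoting complex, the ubiquitin ligase that ends mitosis, gave 1 call of 2 over both diets. Ube2c, its ubiquitin-conjugating enzyme, was at 1.50, 0.394, 0.253 and 0.588 CPM in WT_NCD and 1.14, 0.462, 0.621 and 3.41 CPM in WT_HFD. App libraries held 2.43, 3.27, 3.39 and 0.795 CPM in App_NCD and 2.77, 3.90, 2.52 and 1.99 CPM in App_HFD. WT_HFD 16 lay in the App range, WT_NCD 4 was the second highest wild-type library, and App_NCD 553 lay in the wild-type range. The difference over both diets was 1.418 (adjusted p = 0.0439, SE 0.46), and without WT_NCD 4 and WT_HFD 16 it was 2.25 (adjusted p = 0.000651). The Ube2c call was lost in 13 of the 16 fits that left out 1 library, all but those without WT_NCD 4, WT_HFD 16 or App_NCD 553, and with library totals or no filter on low counts. Cdc20, the activator of the complex at anaphase, was at 2.28, 2.20, 2.97 and 2.14 CPM in WT_NCD and 1.54, 2.24, 1.57 and 4.30 CPM in WT_HFD, and at 2.38, 3.33, 3.82 and 1.11 CPM in App_NCD and 3.50, 4.80, 3.41 and 3.58 CPM in App_HFD. Its groups overlapped on both diets, and the difference of 0.41 (adjusted p = 0.306, SE 0.26) was not called, nor was it without App_NCD 553, at 0.51 (adjusted p = 0.0744).

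Per kilobase of annotated exon, the order of mean levels over the 16 libraries had replication genes in its first 6 places, and Mki67 stood before Mcm5, Mcm2, Rrm2, Tk1 and Tyms. Pcna was highest at 38.2 CPM per kb, followed by Mcm4 at 7.49, Mcm7 at 5.27, Mcm3 at 4.14 and Rrm1 at 3.14 CPM per kb. The lowest were Kif23 at 0.332 and Bub1 at 0.327 CPM per kb. In wild type alone Bub1 was at 0.104 and Mki67 at 0.682 CPM per kb. Counts depend on length as well, and 6 of the 35 (Ccnb1, Ccnb2, Aurkb, Bub1, Birc5 and Ube2c) had fewer than 50 counts in at least 1 library other than App_NCD 553.

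Diet changed none of the 35 genes detectably in either genotype. In wild type, edgeR called 0 of the 35, as it did 0% of all genes, and 1 of the 35, Prc1, had an unadjusted p under 0.05. The median of the 35 log2 differences, high-fat minus control, was 0.23, and without WT_NCD 4 and WT_HFD 16 it was -0.02. In App mice edgeR called 0 of the 35 and 0% of all genes, 0 of the 35 had an unadjusted p under 0.05, and the median was 0.13, or -0.002 without App_NCD 553. The interaction of diet and genotype also gave 0 of the 35 and 0% of all genes, with 0 of the 35 under an unadjusted 0.05. DESeq2 called 0 of the 35 in each of these 3 comparisons, where it called 0.0322%, 0.469% and 0.0138% of all genes. The largest interaction was that of Mki67, at -1.83 (adjusted p = 0.851, SE 0.86), with a 95% interval of -3.71 to 0.05. Its greater genotype difference on the control diet was therefore not shown to differ from that on the high-fat diet, and its 2 extreme libraries were App_NCD 553 and WT_HFD 16.

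Mitotic genes outside the 35 were also called higher more often than all genes, and the lists of other genes were chosen with earlier results of these data known. Of 38 other mitotic genes, 20 were called higher on the control diet, 13 on the high-fat diet and 25 over both, and 0 lower, with a median of 1.17 over both. The shares of all genes called higher were 6.50%, 5.09% and 10.6%. Kif2c, a microtubule depolymerase of the centromere, had a difference of 2.49 (SE 0.30, adjusted p = 2.81e-05), from 0.169 to 0.760 CPM in wild type to 1.20 to 2.55 CPM in App. Ckap2l, a spindle protein, had 2.26 (SE 0.26, adjusted p = 1.72e-05) and Ndc80, the kinetochore's microtubule anchor, 2.04 (SE 0.31, adjusted p = 0.000298). Incenp, the scaffold of the passenger complex, Racgap1, the partner of Kif23, and Sgo1, the protector of centromeric cohesion, had 1.14, 1.17 and 1.56.

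For the lists that follow, the shares over all genes were again 10.6% called higher and 6.34% lower over both diets. Of 17 genes of origin licensing and firing, 3 were called higher and 0 lower, with a median of 0.21. They were Mcm10 at 1.62 (SE 0.25, adjusted p = 0.000352), Dbf4, the partner of the Cdc7 kinase, at 0.91 and Gins1 at 0.90. App_NCD 553 summed to 285 CPM over these 17 genes, against 162 to 164 CPM in the other App_NCD libraries. Of 23 polymerase and fork genes, 2 were called higher, near the share of all genes, Pole at 0.79 and Pola2 at 0.51, with a median of 0.10. In these lists 21 of the 23 polymerase and fork genes and 14 of the 17 origin genes fell short of the threshold. That is near the share over all genes, of which 17% were called in either direction, so it is not a result about replication genes.

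Of 21 G1/S control genes, 8 were called higher over both diets and 1, Ccnd2, lower, where 10.6% and 6.34% of all genes were. The single lower call is near the share over all genes, so it is not a result about the list. Cdk6, a D-cyclin kinase, was at 5.77 to 13.8 CPM in wild type and 22.8 to 51.2 CPM in App, a difference of 1.99 (SE 0.21, adjusted p = 7.07e-06). Ccnd1, cyclin D1, was higher by 1.12 and Rbl1, the pocket protein p107, by 1.04, while Ccnd2, cyclin D2, was lower at -0.76 (SE 0.14, adjusted p = 0.00178). Myc was at 1.08 and E2f8, an E2F repressor, at 1.74. Of 11 CDK inhibitors and p53 targets 3 were called higher and 0 lower, with the same shares over all genes. Cdkn2a, which encodes the cycle inhibitors p16 and p19ARF, was at 0.113 to 0.272 CPM in wild type and 0 to 3.46 CPM in App, a difference of 3.49 (SE 0.56, adjusted p = 0.000449). Cdkn2c was at 0.69 and Cdkn1a, the p53 target p21, at 0.53.

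The levels of the 35 genes were then set beside Cx3cr1, library by library. The 24 mitotic and chromatin genes summed to 35.3 to 40.6 CPM in the 6 wild-type libraries other than WT_NCD 4 and WT_HFD 16, whose Cx3cr1 was 273 to 399 CPM. WT_NCD 4 had a sum of 57.5 CPM at 628 CPM of Cx3cr1, and WT_HFD 16 a sum of 109 CPM at 542 CPM. The App libraries had sums of 114 to 198 CPM at 649.8 to 1015 CPM of Cx3cr1. The highest sum was that of App_NCD 553, where Mki67 alone was at 84.4 CPM and Cdk1 at 0. The genotypes did not overlap in either measure. Since Cx3cr1 itself separated the genotypes, a relation across all 16 libraries would repeat the genotype difference, so the slope was fitted within groups.

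**Figure D4:**
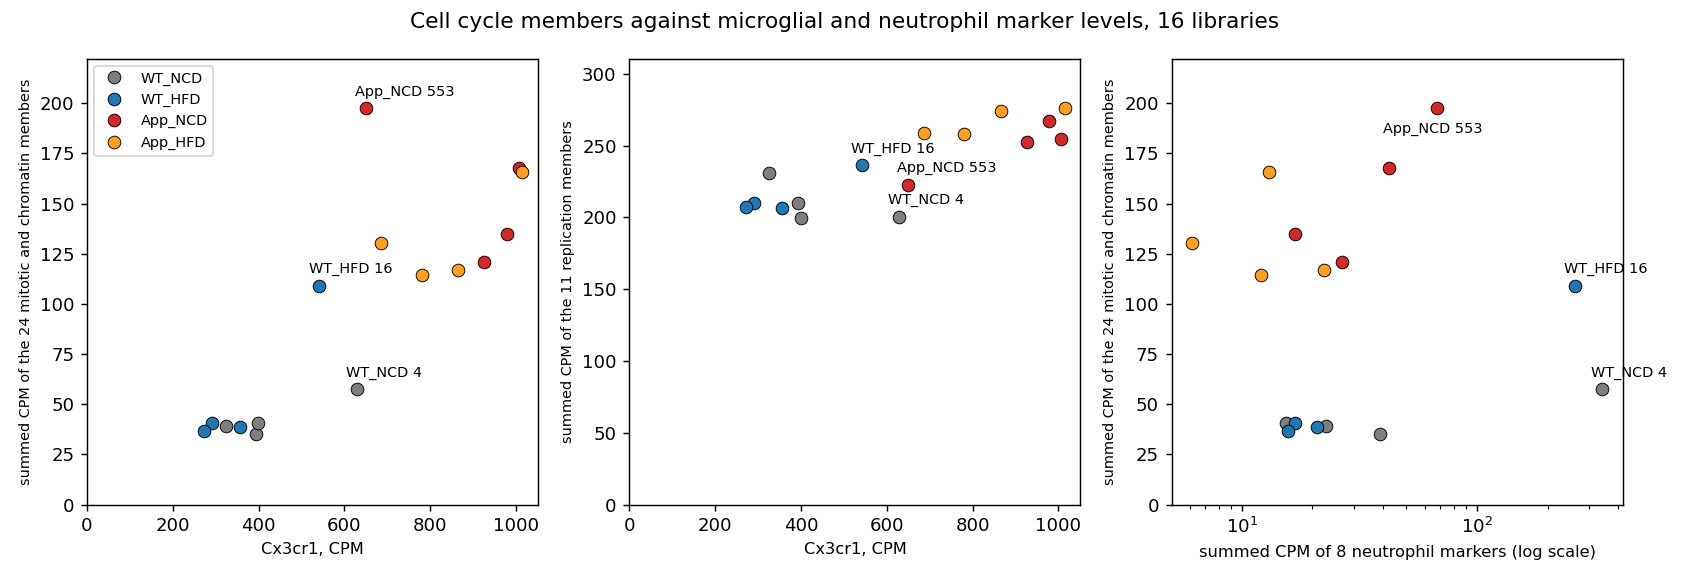
Summed CPM of the 24 mitotic and chromatin genes (left) and of the 11 replication genes (middle) against Cx3cr1, and of the 24 against the summed neutrophil markers (right, log scale), 1 point per library coloured by group. WT_NCD 4 and WT_HFD 16 lie at 342 and 261 CPM of neutrophil markers, apart from all other libraries, and the 24-gene sum of App libraries lies at 114 CPM or more.

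Within groups, 1.57% of all genes tested were called with a positive slope on the log2 level of Cx3cr1 and 0.00459% with a negative one. Of the 35, 6 were called with a positive slope and 0 with a negative one. They were Ube2c at 2.64 (adjusted p = 0.00261, SE 0.28), Aurkb at 1.82 (adjusted p = 0.00694, SE 0.29), Ccnb2 at 1.78 (adjusted p = 0.00514, SE 0.27), Rrm2 at 1.64 (adjusted p = 0.016, SE 0.31), Top2a at 1.4197 (adjusted p = 0.0318, SE 0.31) and Uhrf1 at 1.40 (adjusted p = 0.0161, SE 0.27), each per doubling of Cx3cr1. The median slope of the 35 was 0.79, against 0.12 over all genes. The calls depended on WT_NCD 4 and WT_HFD 16, the wild-type libraries with the most Cx3cr1 and the most neutrophil transcripts. Without WT_NCD 4 the median slope of the 35 was 0.80, without WT_HFD 16 it was 0.42 and without both 0.41, with 34, 31 and 25 of the 35 above 0. Without both, 0 of the 35 and 0% of all genes were called, and without either WT_NCD 4 or WT_HFD 16 only Ube2c was, where 0.173% and 0.207% of all genes were called with a positive slope. In the 8 wild-type libraries alone 8 of the 35 were called, where 2.22% of all genes were called with a positive slope. In the 8 App libraries alone 0 of the 35 and 0% of all genes were. Without App_NCD 553, 14 of the 35 were called, against 4.22% of all genes. All 8 neutrophil markers also had positive slopes, with a median of 3.42, and 2 of them were called.

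Per 100 CPM of Cx3cr1, the 24-gene sum was 8.96 to 13.9 in the 6 wild-type libraries with 15.5 to 38.7 CPM of neutrophil markers, 9.16 in WT_NCD 4 and 20.1 in WT_HFD 16. It was 13.0 to 30.4 in App, or 13.0 to 19.0 without App_NCD 553. Per 1000 CPM of all 15 homeostatic markers it was 8.61 to 19.2 in wild type and 8.02 to 26.6 in App, so the genotypes overlapped throughout. The sum of the 11 replication genes went the other way, at 31.9 to 76.0 per 100 CPM of Cx3cr1 in wild type and 25.3 to 37.7 in App, and the sum itself was 199.8 to 236 CPM in wild type and 223 to 276 CPM in App. Pcna alone made up 79.4 to 91.5 CPM of it in wild type and 80.6 to 113 CPM in App.

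With the log2 level of Cx3cr1 added to the fit, 0 of the 35 genes were called on either diet or over both, where 0.960%, 0.340% and 0.694% of all genes were called higher. Median differences of the 35 fell from 1.39 to 0.30 on the control diet, from 0.99 to 0.21 on the high-fat diet and from 1.07 to 0.26 over both. Tyms was at 1.03 (adjusted p = 0.114), Cenpe at 1.56 (adjusted p = 0.173), Cenpf at 1.47 (adjusted p = 0.199), Mki67 at 1.21 (adjusted p = 0.41) and Top2a at 0.50 (adjusted p = 0.547) over both diets. Because Cx3cr1 ranges of the genotypes did not overlap, genotype and Cx3cr1 level cannot be told apart in this fit.

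When libraries were scaled to the homeostatic microglia markers in place of TMM, the median of all genes over both diets moved to -1.33. Over both diets 7 of the 35 were then higher and 13 lower, where 1.80% of all genes were called higher and 78.9% lower. The members' median was -0.11, and 34 of the 35 lay above the shifted median of all genes, the exception being Mcm7, while 17 were at a positive value. On the control diet 7 were higher and 8 lower, where 2.01% and 51.9% of all genes were, and on the high-fat diet 0 were higher and 12 lower, where 0.937% and 77.6% were. Directions given above for the 35 genes are thus those on the scale of whole libraries, and over both diets 18 of the 35 have a value below 0 when libraries are scaled to microglial transcripts.

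**Figure D5:**
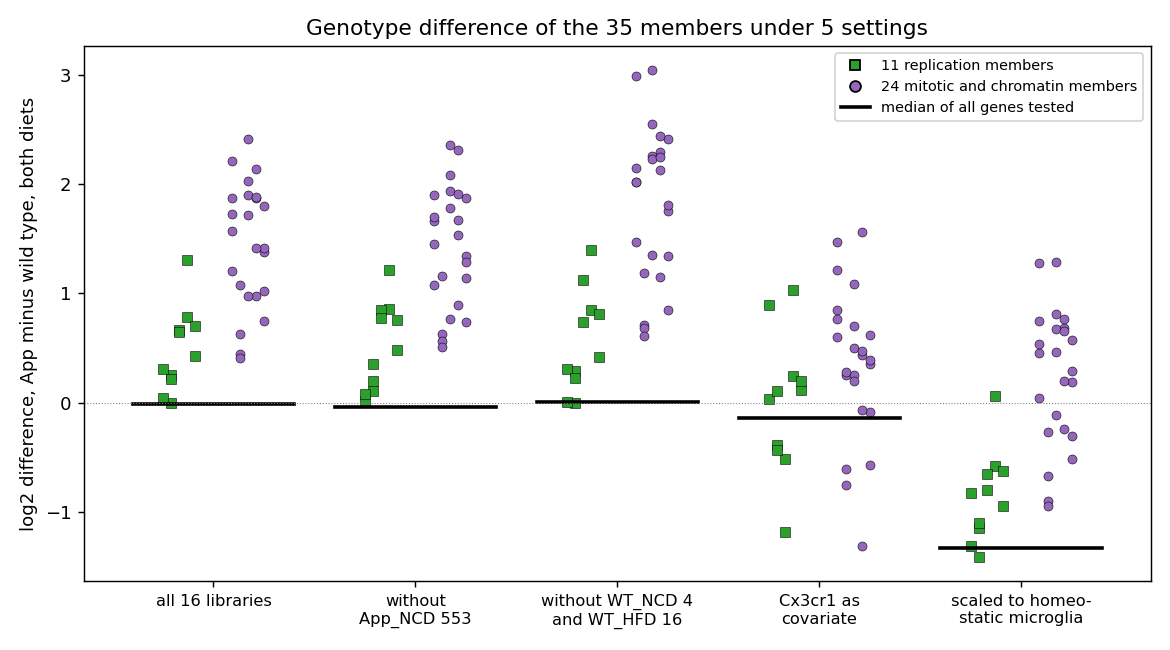
Log2 difference between App and wild type over both diets for each of the 35 genes under 5 settings, with the median of all genes tested as a bar. With all libraries the median of the 24 mitotic and chromatin genes (circles), 1.50, is above that of the 11 replication genes (squares), 0.42, though their values overlap. With the Cx3cr1 term the median of the 35 falls from 1.07 to 0.26 and 9 of the 35 signs turn. Scaling to microglia markers lowers the members, and lowers the median of all genes to -1.33.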

How the data were processed

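The deposited table holds an estimated count per gene and library, which the authors made with StringTie 2.2.1 after fastp 0.23.2 and HISAT2 2.2.1 on mm10, per the submitters' processing notes. The deposited values were all whole numbers. The notes also name bedtools 2.25.0. The annotation is not given in the sources used here. StringTie can divide reads between overlapping genes, and how strand was counted is not stated. In GENCODE M21, Mki67, Plk1, Prc1 and Rrm1 overlap another gene.

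All 16 libraries were fitted in 4 groups with 12 residual degrees of freedom by edgeR 4.0.16 (R 4.3.3, limma 3.58.1), after filterByExpr and TMM scaling, with a robust quasi-likelihood test and Benjamini-Hochberg adjustment over 21768 genes. SE is the log2 difference divided by the square root of F. The slope on Cx3cr1 added its log2 CPM (prior count 0.5) to the groups. The fit was tested on simulated data. The 35 genes, the lists of other genes and markers and the tests were chosen with earlier results of these data known. Library values are given for up to 4 called genes per role by adjusted p and for the gene with the highest mean. Of other cell cycle lists up to 6 called genes were named. Alternatives were DESeq2 1.42.0, other scalings, no filter, the Cx3cr1 term, the libraries of a pair alone and each library left out. Fits without WT_NCD 4 and WT_HFD 16 were added after seeing the data. No unmapped column was in the table.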

Additional observations from a re-analysis of the deposited data

Results flagged for a closer look

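Each group of 4 libraries was checked for a library whose gap to its nearest neighbour, divided by the group's range, exceeded Dixon's 95% critical value. Of 152 such checks 29 stood out, and chance gives about 1 in 20. WT_HFD 16 was set apart from its group most often, as the highest library in Mki67 (24.3 CPM), Top2a (11.2), Uhrf1 (4.03), Rrm2 (5.63), Ccna2 (5.31), Ccnb2 (2.11), Plk1 (1.84), Bub1 (1.26), Bub1b (3.41) and Cenpa (6.03), in the summed level of all 35 genes (345 CPM) and in the summed neutrophil markers (261 CPM). WT_NCD 4 was the highest of its group in Mki67 (7.69 CPM), Rrm2 (3.05), Tk1 (4.10), Bub1 (0.628) and Bub1b (2.06) and in the neutrophil markers (342 CPM). App_NCD 553 was the lowest of its group in Mcm3 (9.77 CPM), Mcm5 (0), Mcm7 (7.52) and Rrm2 (0.965) and the highest in Mcm4 (68.5 CPM). App_HFD 559 was the highest of its group in Bub1b (5.27 CPM), Kif23 (3.62) and Cdc20 (4.80). The remaining flags were single genes, WT_NCD 11 as highest in Cdc20 (2.97 CPM), App_NCD 538 as lowest in Bub1b (3.83) and App_HFD 560 as lowest in Tk1 (5.41).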

How the results depend on the processing

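Of 6300 single-gene values recomputed under other settings, 5416 kept direction and side of the threshold, 316 lost the call, 165 gained it, 351 uncalled values changed sign or moved, and 52 values called in 1 of the settings changed sign. Members called on the control diet, on the high-fat diet, over both diets and for the slope on Cx3cr1 (20, 13, 26 and 6) became 24, 21, 27 and 9 with DESeq2, 9, 6, 19 and 27 with library totals alone, 26, 11, 27 and 13 scaled to mature oligodendrocyte markers, and 20, 11, 25 and 6 with RLE factors. With only the 8 libraries compared, 12 and 19 members were called on the 2 diets, where 2.4% and 12.2% of all genes were called higher. Leaving out 1 library gave 13 to 28, 3 to 24, 23 to 31 and 1 to 14 members. The shares of all genes called higher or with a positive slope were then 3.39% to 10.2%, 3.02% to 10.8%, 8.11% to 16.2% and 0.173% to 4.22%. The libraries behind these ranges are named in the report.

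Genes called in all (1826, 1554, 3692 and 342) became 3398, 2508, 5160 and 817 with DESeq2, which also called 7 for diet in wild type, 102 for diet in App and 3 for the interaction. They were 841 on the control diet and 7036 for the slope with library totals alone, 3168 and 714 for the same 2 with oligodendrocyte scaling, 505 and 4816 on the 2 diets with only the libraries compared, and 246, 114 and 220 with the Cx3cr1 term, under which 0 members were called. Microglia scaling gave 11745, 17102, 17564 and 7306 genes and 13 members for the slope, where 29.9% of all genes were called with a positive slope. Leaving out 1 library gave 939 to 3900, 869 to 4307, 2869 to 7502 and 38 to 986, and 0 to 0 for diet and interaction. Without WT_NCD 4 and WT_HFD 16, 22 members were called on the high-fat diet and 0 genes for the slope, and without App_NCD 553 as well 4448, 4769 and 7762 genes, 30 members on the high-fat diet and 0 for the slope. In the 8 App libraries the slope called 0 genes.

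Scaled to homeostatic microglia markers, 14, 25 and 17 of the 35 signs turned on the control diet, the high-fat diet and over both, and 12 for the slope. Those called in at least 1 of the 2 fits were, on the control diet, Mcm2 -0.94, Mcm3 -0.64, Mcm6 -0.79, Tk1 -0.36, Pcna -0.89, Cenpa -0.86, Kif20a -0.25, Prc1 -0.14 and Cdc20 -1.10; on the high-fat diet Mcm2 -1.35, Mcm3 -0.52, Mcm4 -1.52, Mcm6 -1.09, Mcm7 -1.35, Tyms -0.36, Rrm1 -1.42, Rrm2 -0.79, Tk1 -0.89, Pcna -1.31, Aurka -0.91, Bub1b -0.23, Cenpa -0.94, Cenpf -0.048, Kif20a -0.28, Kif23 -0.58, Prc1 -0.88 and Cdc20 -0.79; over both diets Uhrf1 -0.30, Mcm2 -1.15, Mcm3 -0.58, Mcm4 -0.83, Mcm6 -0.94, Rrm1 -1.31, Rrm2 -0.65, Tk1 -0.62, Pcna -1.10, Aurka -0.67, Cenpa -0.90, Kif20a -0.27, Kif23 -0.24, Nusap1 -0.11, Prc1 -0.51 and Cdc20 -0.95; and in slope Uhrf1 -0.088, Mcm4 3.07, Rrm2 -0.37 and Ube2c -0.025. The scaling itself moves the median of all genes. With the Cx3cr1 term 7, 11 and 9 signs turned. Those called without the term were Aurkb (-0.30 on the high-fat diet) and, over both diets, Uhrf1 -0.57, Ccnb2 -0.085, Aurkb -0.066 and Ube2c -1.32; the cause was not tested. No paired analysis was possible because the labels give the 4 groups different replicate numbers. Depth limits the rarest members, such as Bub1 and Aurkb, whose wild-type values rest on few counts.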
